A study of Mus musculus with 6 samples.

Results

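The keratin genes were examined in cultured mouse kidney tubule cells with and without a Cre recombinase that deletes Setd2, the enzyme that trimethylates histone H3 at lysine 36 along transcribed genes. The set held every protein-coding gene of GENCODE release M21 whose symbol is Krt followed directly by a digit. There were 53 such genes among the 48526 listed, 28 for type I chains and 25 for type II chains. RNA sequencing had been done on primary renal tubular epithelial (RTE) cells grown from the digested kidney cortex of mice aged 4 to 5 weeks, in a medium with insulin, transferrin, selenium, 100 nM hydrocortisone and 20 ng/ml EGF. The 3 KO libraries came from Setd2(F/F)Ksp-Cre+ mice, which carry 2 floxed Setd2 alleles and Cre under the Ksp-cadherin promoter of tubule epithelium. The 3 WT libraries came from Setd2(F/F) littermates, which carry the same floxed alleles and no Cre. All KO cultures carry Cre and no WT culture does, so Cre itself and the deletion cannot be told apart. The labels name no separate animals for the replicates, so p-values measure only how much these libraries vary, and that variation may be technical in part.

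Keratins are the intermediate filament proteins of epithelia, and a filament is built from pairs of 1 type I and 1 type II chain. Simple epithelia such as kidney tubules are known for Krt8 with Krt18, joined in ducts and collecting tubules by Krt7 and Krt19. Stratified epithelia use other pairs: Krt5 with Krt14 in basal cells, Krt1 with Krt10 or Krt4 with Krt13 in the layers above, and Krt6 forms with Krt16 and Krt17 in wounded or activated epithelium. Hair and its root sheaths have keratins of their own.

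The total count per library ran from 86078636 to 106974842, and keratin genes took 0.643% to 0.807% of it. Setd2 was at 163.4, 153.7 and 158.5 CPM (a count relative to the library's TMM-scaled total) in KO replicates 1 to 3, against 184.5, 167.8 and 152.0 CPM in WT replicates 1 to 3. A gene-level count adds up all exons, so it does not check the deletion. Xist, which marks female cells, was at 507 and 606 CPM in KO replicates 2 and 3 and below 1 CPM in the other 4 libraries, so sex and genotype partly coincided. Ddx3y, a Y-linked gene, was at 59.7 CPM in KO replicate 1 and 0.084 and 0.081 CPM in KO replicates 2 and 3, so the KO group held at least 2 animals. For the keratins, calls that end without the Xist-positive libraries are given with their value. That fit has 1 KO library against 3 WT libraries and takes its spread from WT alone. The lone KO library is assumed to vary like the WT libraries. A fit with Xist status of the library as a term also sets KO replicate 1 alone against WT. KO replicates 2 and 3 enter its spread but not its KO effect. Cdh1, the epithelial cadherin that fits the label, was at 1202 ± 56.6 CPM in KO and 1022 ± 38.4 CPM in WT (SD, n = 3 each). The defining markers of mature proximal tubule, Slc34a1 and Slc22a6, had 1 and 4 counts over all 6 libraries, and the collecting duct water channel Aqp2 had 59. Other tubule markers were well detected: Ass1, Slc4a4, Aqp1 and Lrp2 of the proximal tubule had 7741 to 68701 counts, and Cdh16, the Ksp-cadherin gene, had 460591.

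The keratins of these cells were almost wholly those of a simple epithelium, and the 4 most abundant of them differed between KO and WT by less than the spread of the libraries. Krt20 and the scarce Krt23 and Krt42 rose in KO. Krt17, Krt4 and Krt80 fell. In all, 3 keratins rose and 3 fell among the 20 with enough counts to test, which is 30%. Over all 17571 genes tested, 21.0% passed the same threshold, an adjusted p below 0.05 in edgeR's quasi-likelihood test. Of all genes 12.0% were called higher in KO and 9.08% lower. Both shares depended on the libraries. Without KO replicate 1 they were 23.8% of 21 keratins and 9.36% of all genes, without KO replicate 3 they were 28.6% and 10.8%, and with Xist status of the library as a term they were 25% and 6.62%. Without the Xist-positive libraries they were 13% of 23 keratins and 4.88% of all genes. Nothing particular to keratins is read from these shares. The median log2 fold change (KO over WT) was -0.045 over the 20 keratins, 8 of them positive, and -0.008 over all genes tested. In 4 keratins every KO library exceeded every WT library, in 5 every KO library was below, and in 11 the groups overlapped. Over all genes 41.9% had groups that did not overlap (20.6% with KO above, 21.3% with KO below).

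**Figure D1:**
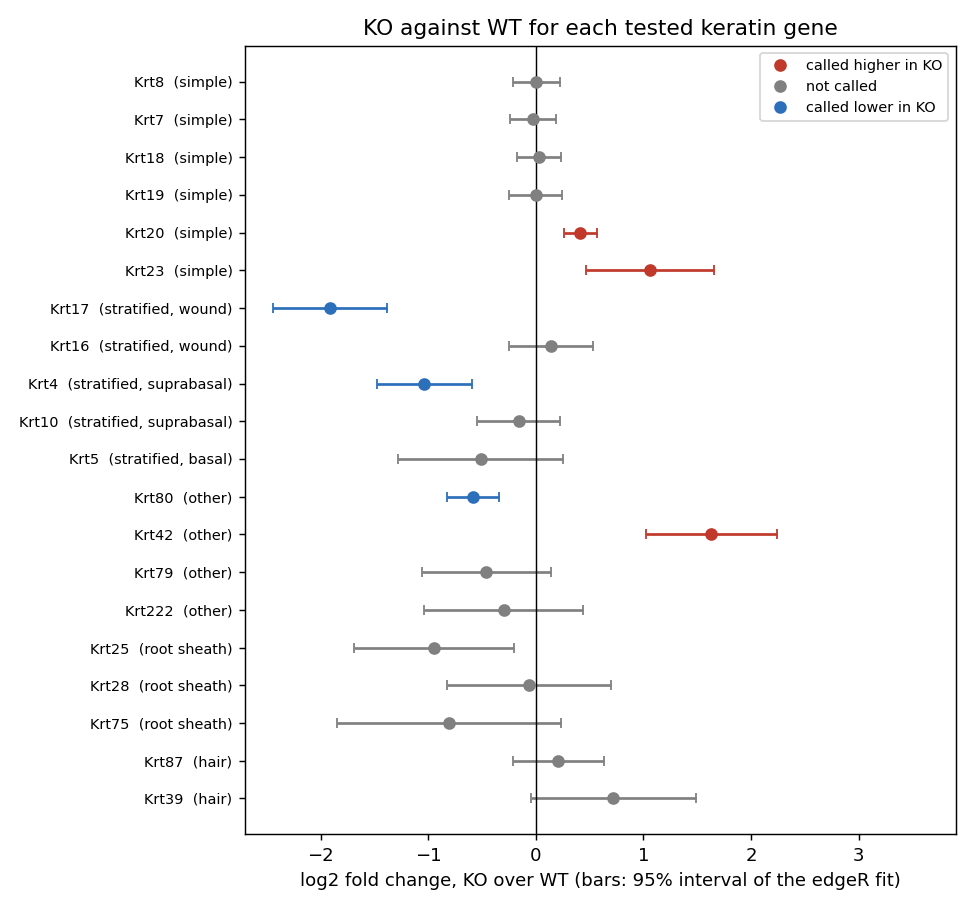
Log2 fold change of each of the 20 tested keratin genes, KO over WT, with its 95% interval, on the horizontal axis, by class down the page. Red points were called higher in KO, blue points lower and grey points neither, and the line at 0 marks no difference. Krt42, Krt23 and Krt20 lie to the right of the line and Krt17, Krt4 and Krt80 to the left, while Krt8, Krt18, Krt7 and Krt19 sit on it.

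All 6 simple epithelial keratins passed the filter on low counts. Of these 2 rose, none fell and 4 did not pass the test, with a median log2 fold change of 0.018. The 4 that did not pass were the abundant ones. Krt8 (ENSMUSG00000049382, GRCm38 chromosome 15, 101996698 to 102004482), the main type II chain of simple epithelia, was at 2552, 2564 and 2661 CPM in KO replicates 1 to 3, against 2227, 2723 and 2810 CPM in WT replicates 1 to 3. The KO libraries lay close together, and inside the WT range. Its log2 fold change was 0.003 ± 0.10 (SE), with a 95% interval from -0.215 to 0.221 and an adjusted p of 0.985. Its type I partner Krt18 (ENSMUSG00000023043, chromosome 15, 102028180 to 102032027) was at 1983, 2055 and 2021 CPM in KO and 1752, 2020 and 2154 CPM in WT. Here too the KO values fell within those of WT, and the log2 fold change was 0.032 ± 0.092 (95% interval -0.170 to 0.234, adjusted p = 0.834). Krt18 is the one type I gene on chromosome 15, 23.7 kb from Krt8 and with no protein-coding gene between them; the other 27 are on chromosome 11.

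Krt7, a type II chain of ducts and glands, was at 1997, 2017 and 1958 CPM in KO and 1738, 2162 and 2185 CPM in WT. Krt19, the type I chain of ducts and collecting tubules, was at 448.8, 478.4 and 449.2 CPM in KO and 366.6, 505.1 and 505.7 CPM in WT. In both genes the KO libraries lay between WT replicate 1 and the rest of the WT group. The log2 fold changes were -0.027 ± 0.099 for Krt7 (95% interval -0.243 to 0.189, adjusted p = 0.871) and -0.001 ± 0.114 for Krt19 (95% interval -0.250 to 0.248, adjusted p = 0.996). WT replicate 1 had the lowest value of all 6 libraries in each of Krt8, Krt18, Krt7 and Krt19, and the spread of the WT group in these genes comes mostly from it. The intervals reach at most 0.250 on the log2 scale in either direction, so changes up to that size could not be told from none with 3 libraries per group.

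Krt20 (ENSMUSG00000035775, chromosome 11, 99428403 to 99438150, minus strand) is a type I keratin known from the intestine and from umbrella cells of the urinary tract, and in mice it is also known to appear in injured tubule cells. It was at 316.5, 305.4 and 313.1 CPM in KO, against 241.8, 236.5 and 222.9 CPM in WT. The lowest KO library was well above the highest WT library. The log2 fold change was 0.415 ± 0.070, which is 1.33-fold (95% interval 1.20 to 1.48), with an adjusted p of 0.00237. Without the 2 Xist-positive libraries the log2 fold change was 0.436 and the adjusted p was 0.0851.

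Krt23 (ENSMUSG00000006777, chromosome 11, 99477974 to 99493137, minus strand) is a type I keratin of glandular and simple epithelia. It was scarce, at 1.032, 1.271 and 0.876 CPM in KO, against 0.718, 0.471 and 0.342 CPM in WT. All KO values were above all WT values. Its log2 fold change was 1.062 ± 0.273, which is 2.09-fold (95% interval 1.38 to 3.16), with an adjusted p of 0.0194. The call rested on single libraries: the adjusted p was 0.0525 without KO replicate 1, 0.0666 without KO replicate 2, 0.0623 without WT replicate 2 and 0.0503 without WT replicate 3. It was 0.142 with Xist status of the library as a term, and 0.158 without the Xist-positive libraries.

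The third keratin that rose, Krt42 (ENSMUSG00000053654, chromosome 11, 100262882 to 100269871, minus strand), is a type I keratin known in the mouse from the nail unit. It had 0.873, 0.672 and 0.723 CPM in KO, against 0.162, 0.330 and 0.228 CPM in WT. Every KO library had more than 2 times the highest WT value. On the log2 scale the change was 1.631 ± 0.279, which is 3.10-fold (95% interval 2.03 to 4.73), with an adjusted p of 0.00261. The 3 keratins that rose are all type I genes on the minus strand of chromosome 11. So are Krt17, which fell, and Krt19, Krt16 and Krt10, which did not pass the test. Krt20 and Krt23 are neighbours there, 39.8 kb apart with no protein-coding gene between.

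The regions around the start sites of Krt20, Krt23 and Krt42 are printed because these are the called keratins with an entry in the promoter table used. The windows of Krt17, Krt4 and Krt80 are not shown here. Of the 53 keratin genes 36 had an entry in the RefSeq promoter table (GRCm38.p6), with 37 windows in all. Each window runs 5′ to 3′ from 250 bases before the annotated start to 50 after it, on the minus strand of chromosome 11: chr11:99438104-99438403 for Krt20, chr11:99493071-99493370 for Krt23 and chr11:100269902-100270201 for Krt42. Capitals mark the core of the TATA box, TATAAA, on either strand. They also mark AGATAA, a site of the GATA factors, on either strand.
Krt20: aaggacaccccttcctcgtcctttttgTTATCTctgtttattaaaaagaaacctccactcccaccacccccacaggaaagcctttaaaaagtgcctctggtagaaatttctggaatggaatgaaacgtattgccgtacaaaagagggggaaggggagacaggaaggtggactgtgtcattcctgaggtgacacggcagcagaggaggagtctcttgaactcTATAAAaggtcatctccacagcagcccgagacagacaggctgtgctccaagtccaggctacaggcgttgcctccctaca
Krt23: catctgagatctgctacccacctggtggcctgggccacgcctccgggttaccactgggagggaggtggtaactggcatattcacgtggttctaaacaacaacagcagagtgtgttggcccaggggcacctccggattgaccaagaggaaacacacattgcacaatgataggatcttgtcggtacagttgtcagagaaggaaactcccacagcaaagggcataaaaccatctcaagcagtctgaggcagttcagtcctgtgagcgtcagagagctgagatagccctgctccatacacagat
Krt42: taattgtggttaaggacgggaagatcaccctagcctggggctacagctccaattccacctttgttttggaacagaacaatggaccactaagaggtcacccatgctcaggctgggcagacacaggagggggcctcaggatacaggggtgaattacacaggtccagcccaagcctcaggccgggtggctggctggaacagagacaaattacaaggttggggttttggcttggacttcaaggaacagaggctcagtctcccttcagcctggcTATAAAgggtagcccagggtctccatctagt

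In Krt20 the TATAAA match begins 29 bases before the annotated start. In Krt42 it begins 20 bases after the RefSeq start, and the Krt23 window held none. The start of Krt42 differs between sources. Its window, 100269902 to 100270201, lies wholly before the GENCODE gene, whose minus-strand start is at 100269871. Against that start the TATAAA match of Krt42 lies upstream. Krt20 also had an AGATAA match on the opposite strand, 223 bases before the start. TATAAA was found in 19 of the 37 keratin windows and in 13.6% of all 32851 windows of the table. AGATAA was found in 10 of the 37 and in 11.2% of all. A further pair of motifs, TGANTCA (AP-1) and GGGCGG (the GC box), were in none of these 3 windows, in 2 keratin windows each, and in 7.81% and 35.7% of all windows. These are matches of letters only.

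**Figure D2:**
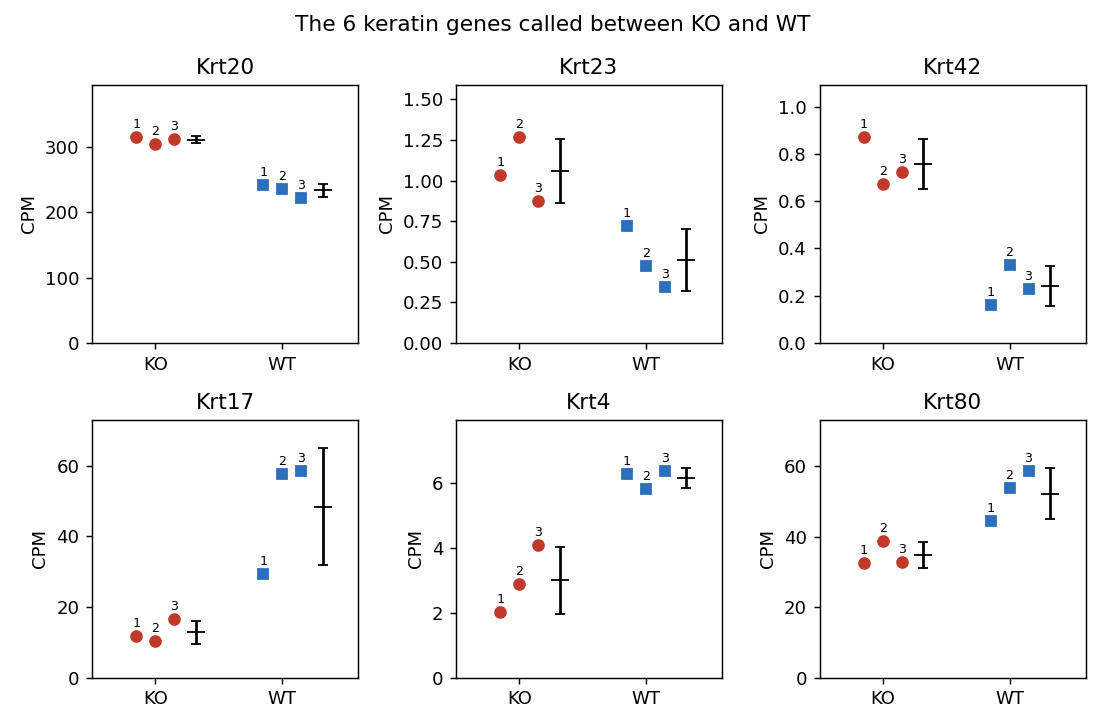
CPM of the 6 keratin genes that passed the test, with 1 numbered point per library, KO to the left of WT, and a mean with its SD (n = 3) beside each group. Each panel has its own vertical axis from 0. The KO points of Krt20, Krt23 and Krt42 lie above all WT points, and those of Krt17, Krt4 and Krt80 lie below.

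Of the 17 stratified keratins, 5 had enough counts to test. None rose, 2 fell (Krt17 and Krt4) and 3 did not pass, with a median log2 fold change of -0.512. Krt17 (ENSMUSG00000035557, chromosome 11, 100256217 to 100261029, minus strand), a type I keratin induced in wounded skin and in activated epithelial cells, was the most abundant of them. It was at 11.72, 10.41 and 16.56 CPM in KO, against 29.32, 57.68 and 58.48 CPM in WT. Every KO library was below every WT library, and WT replicate 1 was nearer to the KO libraries than to the rest of its group. The log2 fold change was -1.911 ± 0.241, which is 0.266-fold (95% interval 0.185 to 0.383), with an adjusted p of 0.000463. In this bulk RNA, fewer Krt17-positive cells and less Krt17 RNA per cell cannot be told apart, and the same holds for every keratin here. Over all alternative settings the log2 fold change of Krt17 ran from -2.158 to -1.753, with an adjusted p of at most 0.0141.

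Krt4 (ENSMUSG00000059668, chromosome 15, 101918535 to 101924735) is the type II keratin of the upper layers of moist stratified epithelia such as the oesophagus. It was at 2.030, 2.878 and 4.084 CPM in KO, against 6.288, 5.809 and 6.359 CPM in WT. The WT libraries were close together, and KO replicate 1 was the lowest of all. The log2 fold change was -1.034 ± 0.202, which is 0.488-fold (95% interval 0.360 to 0.663), with an adjusted p of 0.00516. It was -1.600 with KO replicate 1 as the sole KO library and -0.803 without that library, and the adjusted p stayed at or below 0.0190 in every setting tried. Its partner Krt13 had 17 counts in all 6 libraries together.

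The wound keratin Krt16, type I partner of the Krt6 forms, was at 2.869, 2.269 and 2.842 CPM in KO and 1.899, 2.937 and 2.382 CPM in WT. Its groups overlapped, and the log2 fold change was 0.141 ± 0.179 (95% interval -0.252 to 0.533, adjusted p = 0.604). Krt10, of the upper layers of the epidermis, was at 1.395, 1.470 and 1.843 CPM in KO and 1.517, 1.826 and 1.916 CPM in WT, again with overlap (log2 fold change -0.160, adjusted p = 0.542). Basal Krt5 was near the limit of detection, with a mean of 0.113 CPM in KO and 0.162 CPM in WT. All its KO values lay below all WT values, yet the log2 fold change of -0.512 did not pass the test (adjusted p = 0.315).

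The usual partners of these chains were nearly absent. Krt14 had 23 counts over the 6 libraries, Krt15 had 18, Krt6a had 3 and Krt6b had 1. Among the suprabasal keratins, Krt12 of the cornea had 61 counts and Krt1 had 9. Krt17, Krt16 and Krt42 lie next to each other on chromosome 11, with 7.3 kb between Krt16 and Krt17, 1.9 kb between Krt17 and Krt42, and no protein-coding gene in either gap. Krt17 fell, Krt42 rose and Krt16 did not pass the test, so these 3 neighbours showed 3 different outcomes.

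Close relatives can share reads, and how reads that map to several places were counted is not given in the sources used here. Of the 50-base stretches of the Krt17 transcripts, 3.99% were also found in another gene (Krt14, Krt16, Krt42 or Krt15), and none of its 100-base stretches were. For Krt42 the share at 50 bases was 0.234%, for Krt80 it was 2.74%, and for Krt20, Krt23 and Krt4 it was 0. The values of Krt16 and Krt8 are less certain. Krt16 shared 37.6% of its 50-base stretches, mostly with the pseudogene Gm11597, which had no count. Krt8 shared 29.7%, mostly with Krt8-ps, a processed pseudogene with 580, 789 and 896 counts in KO and 651, 954 and 667 in WT. Krt87 shared 36.9%. An antisense gene, Gm11940, overlaps 146 bases of Krt10, and opposite-strand microRNA genes overlap 129 bases of Krt5 and 129 bases of Krt75. Without a stated strand setting reads of those stretches cannot be assigned.

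Outside the simple and stratified classes, Krt80 was the one abundant keratin. Krt80 (ENSMUSG00000037185, chromosome 15, 101347444 to 101370162) is a type II keratin found in many epithelia, near the cell margin and the desmosomes. It was at 32.57, 38.87 and 32.86 CPM in KO, against 44.30, 53.75 and 58.50 CPM in WT. The highest KO library was below the lowest WT library. Its log2 fold change was -0.586 ± 0.111, which is 0.666-fold (95% interval 0.563 to 0.788), with an adjusted p of 0.00443. Without the 2 Xist-positive libraries the log2 fold change was -0.681 and the adjusted p was 0.0544. Krt80 lies 40.9 kb from Krt7, with no protein-coding gene between them.

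Among the 23 keratins of hair and its root sheaths, 5 were tested and none passed. Krt87, listed with the hair keratins, was at 1.678, 1.187 and 1.212 CPM in KO and 1.158, 1.280 and 1.077 CPM in WT, with overlapping groups (log2 fold change 0.210, adjusted p = 0.459). Krt39 of the hair cuticle was higher in all KO libraries than in any WT library, at 0.306 ± 0.133 CPM in KO and 0.186 ± 0.019 CPM in WT, and did not pass (log2 fold change 0.718, adjusted p = 0.163). Krt25 of the inner root sheath averaged 0.177 ± 0.065 CPM in KO and 0.341 ± 0.086 CPM in WT. Its log2 fold change of -0.946 had an adjusted p of 0.0685, and it passed without a filter (0.0367), without KO replicate 2 (0.0446) and without WT replicate 1 (0.0456). Krt28, also of the inner root sheath, and Krt75, of the companion layer, had adjusted p-values of 0.916 and 0.247.

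Krt79, of the hair canal and sebaceous duct in mouse skin, averaged 0.311 ± 0.045 CPM in KO and 0.429 ± 0.104 CPM in WT. Its groups did not overlap, with KO lower, and the adjusted p was 0.250. Krt222 had an adjusted p of 0.557. By chain type, 12 type I keratins were tested, of which 3 rose and 1 fell, and 8 type II keratins, of which none rose and 2 fell.

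The other 33 keratin genes were under the filter. Of these 12 had no count in any library, 11 had 1 to 9 counts in all, and 10 had between 10 and 61. The 10 were Krt12 (61 counts), Krt84 (55), Krt88 (38), Krt14 (23), Krt15 (18), Krt90 (18), Krt13 (17), Krt36 (16), Krt24 (14) and Krt26 (10). Krt88 had 12, 9 and 9 counts in KO, against 2, 2 and 4 in WT. Each KO library had more than any WT library, and with no filter on low counts its adjusted p was 0.0466. No keratin under the filter enters the counts of called genes above.

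**Figure D3:**
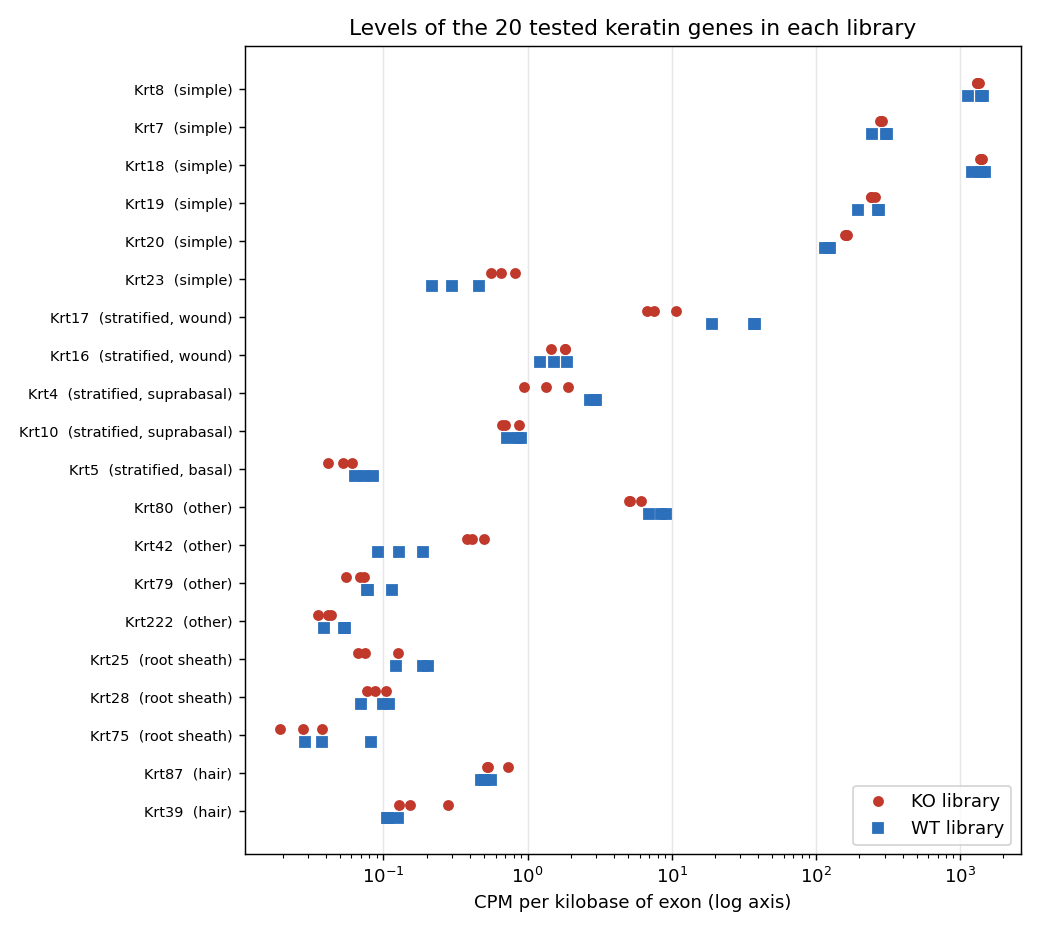
Level of each tested keratin in CPM per kilobase of merged exon, on a log axis, with 1 point per library and keratins grouped by class; KO circles lie above WT squares within each gene. The simple keratins Krt8, Krt18, Krt7, Krt19 and Krt20 stand far to the right of the other 15 genes, and the KO circles of Krt17 and Krt4 lie left of the WT squares.

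Levels of different genes can be compared only per length, so CPM was divided by the length of each gene's merged exons in kilobases. On that scale Krt18 was highest, at 1405 ± 24.9 CPM per kilobase in KO and 1375 ± 142 CPM per kilobase in WT (SD, n = 3 each). Krt8 followed at 1324 ± 30.6 in KO and 1321 ± 161 in WT, and Krt8 was below Krt18 in each of the 6 libraries. Then came Krt7 with 282 ± 4.28 in KO and 288 ± 35.7 in WT, and Krt19 with 247 ± 9.15 in KO and 248 ± 43.2 in WT; Krt7 was above Krt19 in each of the 6 libraries. Krt20 was at 162 ± 2.96 in KO and 121 ± 5.05 in WT. The next genes were far lower. Krt17 was at 8.32 ± 2.09 in KO and 31.3 ± 10.7 in WT, and Krt80 at 5.44 ± 0.557 in KO and 8.16 ± 1.13 in WT.

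The merged exons of Krt7 (7049 bases) and Krt80 (6393 bases) are far longer than their coding sequences (1371 and 1356 bases). An order by coding length, chosen after the data were seen, placed Krt8 first with 1764 ± 40.7 CPM per kilobase in KO and 1760 ± 214 in WT. Krt18 and then Krt7 followed, with Krt7 at 1452 ± 22.0 in KO and 1479 ± 184 in WT. Over all 6 libraries Krt80 then averaged more than Krt17, although Krt17 was above Krt80 in WT replicates 2 and 3, at 44.4 and 45.0 against 39.6 and 43.1 CPM per kilobase. Krt7 followed Krt8 and Krt18 by either length, while the orders of Krt8 with Krt18 and of Krt17 with Krt80 depend on the length used. Differences between KO and WT within a gene do not.

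Summed over each class per kilobase of merged exon, the simple keratins came to 3374, 3443 and 3448 CPM per kilobase in KO, against 2927, 3498 and 3633 in WT. That was 99.43 ± 0.067% of all keratin in KO and 98.66 ± 0.224% in WT. The groups overlapped in the summed level but not in the share. The stratified keratins came to 11.2, 10.4 and 15.5 CPM per kilobase in KO, against 23.97, 42.8 and 43.3 in WT. They made up 0.359 ± 0.077% of all keratin in KO and 1.06 ± 0.220% in WT. By coding length these shares were 0.273% in KO and 0.800% in WT.

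Most of that difference was Krt17. Krt17 was 67.0 ± 2.20% of the stratified sum in KO and 84.3 ± 4.67% in WT. The wound-induced keratins as a class summed to 10.0 ± 2.23 CPM per kilobase in KO and 32.8 ± 10.99 in WT. The suprabasal ones summed to 2.26 ± 0.599 in KO and 3.76 ± 0.168 in WT, and the basal ones to 0.087 ± 0.040 in KO and 0.122 ± 0.010 in WT. Among the simple keratins Krt20 was 4.70 ± 0.133% of all keratin in KO and 3.61 ± 0.567% in WT. The sum of type II over that of type I chains was 0.884 ± 0.019 in KO and 0.911 ± 0.018 in WT, and Krt8 over Krt18 was 0.942 ± 0.025 in KO and 0.960 ± 0.028 in WT. By merged exons the KO and WT libraries overlapped in both ratios. By coding length type II over type I was 1.457 ± 0.020 in KO and 1.519 ± 0.032 in WT, with every KO library below every WT library, and Krt8 over Krt18 was 1.109 ± 0.030 in KO and 1.129 ± 0.033 in WT, with overlap. Whether a ratio is above or below 1 thus depends on the length used. These sums, shares and ratios were not tested.

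**Figure D4:**
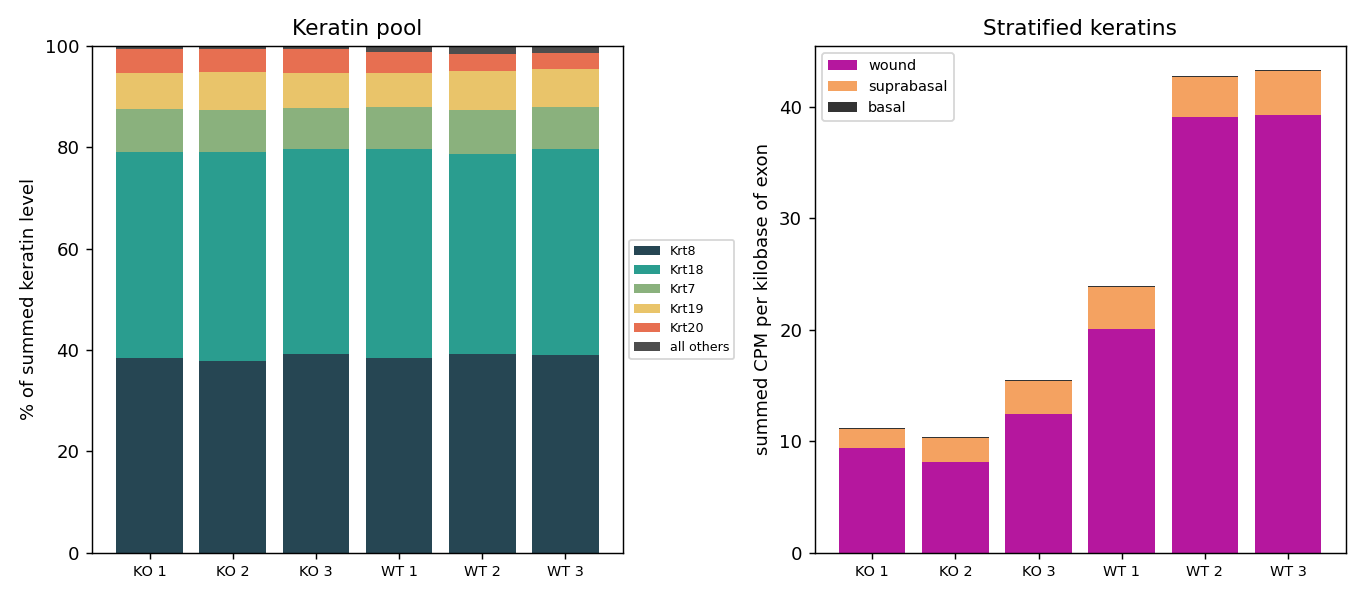
One panel stacks the percent of the summed keratin level (CPM per kilobase of merged exon) taken by 5 simple keratins and by all others, and the other stacks the summed level of the 3 classes of stratified keratins, for KO and then WT libraries. The shares of Krt8, Krt18, Krt7 and Krt19 look alike in all 6 bars, and the stratified sum is 10.4 to 15.5 in KO libraries, against 23.97 to 43.3 in WT libraries.

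Genes whose products work with keratins were also measured. For comparison with the counts in this and the following lists, 12.0% of all genes tested were called higher in KO and 9.08% lower. The lists are small, so nothing particular to a list is read from its count of calls. Among 17 tested plakins and desmosome or hemidesmosome genes, which anchor keratin filaments to the membrane, 6 rose and none fell, with a median log2 fold change of 0.14. Jup, the plakoglobin of desmosomes, was at 573 ± 3.70 CPM in KO and 374 ± 53.7 CPM in WT (log2 fold change 0.616, adjusted p = 0.00201). Evpl, the envoplakin of the cornified envelope and desmosomes, was at 29.6 ± 1.54 CPM in KO and 17.9 ± 3.48 CPM in WT (0.728, adjusted p = 0.00262). Itgb4, the hemidesmosome integrin that binds keratin through plectin, had a log2 fold change of 0.453 (adjusted p = 0.00656). With Xist status of the library as a term, 1 of the 6 calls held, that of Jup (adjusted p = 0.0349). In that fit Evpl had an adjusted p of 0.0582 and Itgb4 0.0612. The KO effect in that fit comes from KO replicate 1 alone, as in every fit with this term below. Leaving out the Xist-positive libraries leaves the same 1 KO library. The log2 fold changes were then 0.613 for Jup, 0.652 for Evpl and 0.494 for Itgb4.

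Other cytoplasmic intermediate filament genes included 11 tested, of which 5 rose and 1 fell. Vim, the filament of mesenchymal and dedifferentiated cells, was at 123 ± 30.6 CPM in KO and 36.2 ± 2.11 CPM in WT (log2 fold change 1.762, adjusted p = 2.7e-05). Bfsp1, a lens filament protein, and Prph, peripherin of neurons, rose by 1.473 and 1.783 on the log2 scale, both at under 1 CPM in either group. The one that fell was Nefh, a neurofilament gene, with a log2 fold change of -0.672 (adjusted p = 0.0374). With Xist status of the library as a term, 3 of the 6 calls held, those of Vim, Prph and Bfsp1. Without the Xist-positive libraries the log2 fold change was 1.669 for Prph and -0.833 for Nefh.

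Regulators of stratified epithelium went both ways. Of 17 tested, 5 rose and 2 fell. Tfap2a, an AP-2 factor of surface ectoderm, rose by 0.749 on the log2 scale (adjusted p = 0.000221), Grhl3 by 1.266 (adjusted p = 0.00181) and Klf5 by 0.482 (adjusted p = 0.00371). The 2 that fell were Grhl2 (log2 fold change -0.383, adjusted p = 0.00393) and Trp63, the p63 factor of basal cells (-0.758, adjusted p = 0.0157), with Trp63 at 1.42 ± 0.315 CPM in KO and 2.40 ± 0.270 CPM in WT. With Xist status of the library as a term, 3 of these 7 calls held, those of Tfap2a, Grhl3 and Klf5. Without the Xist-positive libraries the log2 fold change was -0.353 for Grhl2 and -0.431 for Trp63. Of 9 tested cornified envelope genes 5 rose and none fell. Sprr2f was at 14.9 ± 2.75 CPM in KO and 1.97 ± 0.274 CPM in WT (log2 fold change 2.906), and the envelope precursors Ivl and Sprr1a rose by 1.752 and 1.737 on the log2 scale. Of these 5 calls 4 held with Xist status of the library as a term, these 3 among them.

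Genes of wounding and tubule injury, in which Krt17 and Krt20 are known, were also mixed, with 7 of 15 tested higher and 2 lower. Itga2, a collagen receptor integrin, rose by 0.864 on the log2 scale (adjusted p = 0.000402), and Lamb3, a laminin-332 chain, rose by 0.546 (adjusted p = 0.00338). Vcam1 had a log2 fold change of -0.441 (adjusted p = 0.00352), and the injury marker Lcn2, which was also lower, -0.651 (adjusted p = 0.0267). With Xist status of the library as a term, 7 of the 9 calls held, Itga2, Lamb3 and Lcn2 among them, and Vcam1 had an adjusted p of 0.0617. Without the Xist-positive libraries the log2 fold change was 0.580 for Lamb3 and -0.453 for Vcam1.

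**Figure D5:**
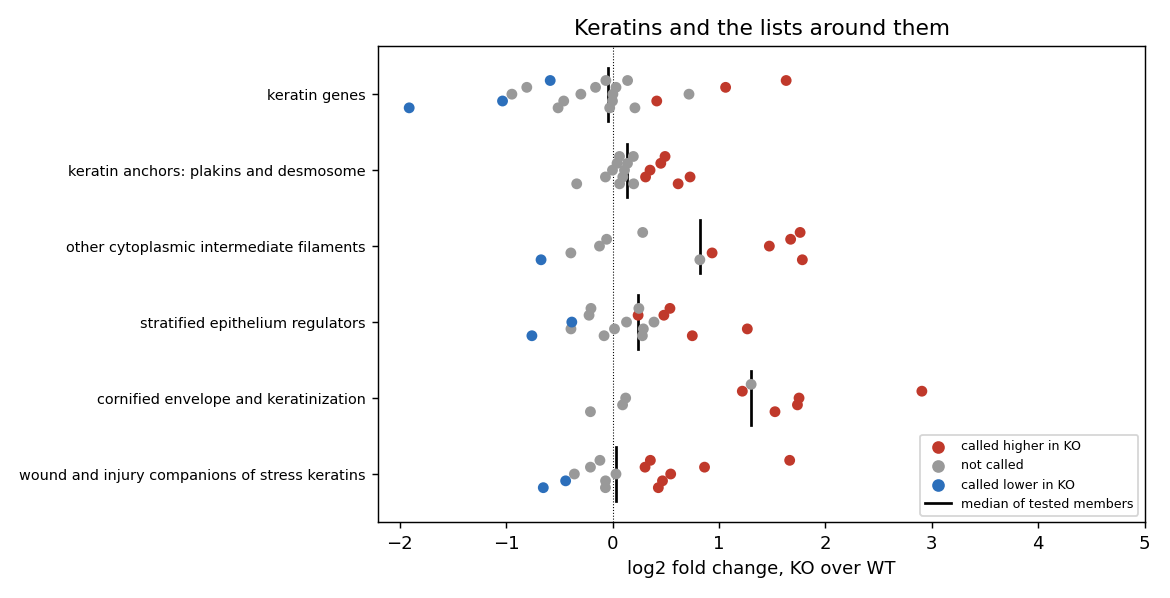
Log2 fold change, KO over WT, of every tested keratin and every tested gene of the 5 companion lists, 1 point per gene, with a line at each median. Red points were called higher in KO, blue points lower and grey points neither. The keratins lie on both sides of 0, with Krt17 at -1.911 and Krt42 at 1.631, and Sprr2f is the rightmost point at 2.906.

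Markers of other cell types that such cultures could hold also differed between the groups. The shares over all genes tested, 12.0% called higher in KO and 9.08% lower, apply beside these counts too. Of the urothelial markers, whose tissue is known for Krt20, Krt7 and Krt5, 7 of 9 were tested, 3 rose and 2 fell, and their sum ran from 35.57 to 38.64 CPM in KO and from 28.58 to 32.32 CPM in WT. Among its defining uroplakins, Upk3a had 2 counts in all and Upk1b 16, while Upk1a (adjusted p = 0.855) and Upk2 did not pass the test. The 3 urothelial markers that rose were Foxa1 (log2 fold change 0.722, adjusted p = 0.00214), Gata3 (0.467, adjusted p = 0.0177) and Psca (0.432, adjusted p = 0.0338). The 2 that fell were Upk3b and Trp63. Markers of mesothelium and parietal epithelium summed to 776.3 to 914.8 CPM in KO and 1027 to 1055 CPM in WT, with 2 of 6 tested higher and 3 lower. With Xist status of the library as a term, 1 of the 5 urothelial calls and none of the 5 mesothelial and parietal calls held. Upk3b, on both lists, was at 3.85 ± 0.289 CPM in KO and 6.10 ± 0.024 CPM in WT (log2 fold change -0.663, adjusted p = 0.00255). The sum of the mesothelial and parietal list is thus lower in KO, as are Krt17 and Krt4. Within the KO group, replicate 3 had the lowest sum and the highest values of Krt17 and Krt4. The members of the list went both ways. Wt1 (log2 fold change 0.783, adjusted p = 0.0449) and Pax2 (0.508, adjusted p = 0.0198) were higher in KO. The 3 that were lower were Upk3b, Cldn1 (-0.576, adjusted p = 0.00329) and Msln (-0.361, adjusted p = 0.0186). The part of this list in the Krt17 and Krt4 results was not tested.

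Proximal tubule markers had 5 of 8 tested higher and 1 lower, with sums of 304.3 to 323.3 CPM in KO and 282.5 to 289.4 CPM in WT. Distal tubule and collecting duct markers had 4 of 11 higher and none lower, with sums of 2477 to 2671 CPM in KO and 2202 to 2285 CPM in WT. Endothelial markers had 5 of 8 higher (27.23 to 36.43 CPM in KO, 18.00 to 19.61 CPM in WT), leukocyte markers 4 of 8 (42.98 to 51.60 CPM in KO, 28.88 to 34.02 CPM in WT), and fibroblast and pericyte markers 5 of 6 (58.05 to 103.4 CPM in KO, 56.13 to 77.66 CPM in WT), with none lower in these 3 lists. These counts stand beside 12.0% of all genes tested called higher in KO and 9.08% lower. With Xist status of the library as a term, all 5 endothelial, 3 of 5 fibroblast and pericyte and 1 of 4 leukocyte calls held. So did 2 of 6 proximal and 2 of 4 distal calls, and 6.62% of all genes were called in that fit. Their part in the keratin values was not tested.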

How the data were processed

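For each of the 6 libraries the authors deposited raw counts, 1 whole number for every Ensembl gene. Per the submitters' processing notes, the build was mm10 and the tools HTSeq 0.11.2, STAR 2.7.1a and Trimmomatic 0.38. Not given in the sources used here: the annotation release, strand setting and treatment of multi-mapping reads. Symbols and lengths came from GENCODE M21. The test was that of edgeR 4.0.16 under R 4.3.3 (default filterByExpr, TMM factors, quasi-likelihood fit with genotype as its term, Benjamini-Hochberg over 17571 genes, threshold 0.05). The procedure was tested on simulated data. Each SE was derived from the fold change and the F statistic. Means are given ± SD over 3 libraries. Keratins with an adjusted p below the threshold or a mean of at least 1 CPM are given per library. From each companion list, but not from the lists of cell type markers, up to 3 called members with the smallest adjusted p are named. The other companions and the markers named were chosen after their values were seen. They were Nefh, Grhl2, Trp63, Upk3b, Upk1a, Upk1b, Upk2, Upk3a, Foxa1, Gata3, Psca, Wt1, Pax2, Cldn1 and Msln. Also among them were Cdh1, Cdh16, Slc34a1, Slc22a6, Ass1, Slc4a4, Aqp1, Lrp2, Aqp2, Ddx3y and Lcn2. The keratin genes and all gene lists were chosen with earlier results of these data known. DESeq2 1.42.0 and limma-voom 3.58.1 served as alternatives. Figures were drawn with matplotlib 3.10.9.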

Additional observations from a re-analysis of the deposited data

How the results depend on the processing

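Counts of called keratins stayed at 2 to 3 higher and 3 to 4 lower when each library was left out, and Krt17, Krt4 and Krt42 kept their calls in every alternative that tested them; the one without the Xist-positive libraries has 1 KO library and takes its spread from WT alone. With a mean of at least 1 CPM as the filter 1 keratin was higher, since Krt23 and Krt42 are below it, and without the Xist-positive libraries 1 was higher. Over all genes 1163 were called when Xist status of the library was a term, 907 without the Xist-positive libraries, and 1683 to 3766 when each library was left out. In the fit with the Xist term the KO effect also comes from KO replicate 1 alone. The stratified share of keratin was 0.276% in KO and 0.788% in WT with no length correction. By coding length, an alternative chosen after the data were seen, it was 0.273% in KO and 0.800% in WT. The replicate block gave 3 higher and 3 lower keratins and 3594 called genes. Deviations from the group means in same-numbered libraries had correlations of 0.042, -0.146 and 0.032. With 3 libraries per group such values neither show nor exclude a pairing by number. Only keratins with a log2 fold change near 0 changed sign. Krt19 was at 0.014 under the replicate block and limma-voom, 0.007 with DESeq2's size factors or test, 0.027 with upper-quartile factors, 0.028 with a mean of 1 CPM, and from -0.129 to 0.073 when each library was left out. Krt7 was at 0.000 with upper-quartile factors, 0.002 with a mean of 1 CPM, and from -0.116 to 0.029 when each library was left out. Krt8 was at 0.000 with library totals, -0.014 with no filter, -0.019 with the Xist term, -0.020 without the Xist-positive libraries, and from -0.083 to 0.066 when each library was left out. With each library left out Krt18 ran from -0.037 to 0.097 and Krt28 from -0.233 to 0.083. Keratins below about 1 CPM are limited by counting as well as by the spread of 3 libraries.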
